A study of Mus musculus with 6 samples.

Results

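The nuclei described here are 75 neuron nuclei of the mouse dorsal root ganglion that carried messages of Trpm8, the cation channel opened by cooling and by menthol. They were taken from 1 droplet library of the lumbar dorsal root ganglia of C57BL/6 mice at P14 (4 males and 4 females per the labels, pooled), in which each unique molecular identifier (UMI) counts 1 captured RNA molecule. A nucleus was chosen when it had at least 1000 UMIs, a mitochondrial share of at most 5%, a UMI of at least 2 of the neuron genes Snap25, Syt1, Rbfox3 and Elavl3, at least 2 Trpm8 UMIs, and none of Mrgprd, Mrgpra3, Il31ra or Nppb, which mark other sensory neurons. The 75 nuclei were 6.78% (95% Clopper-Pearson interval 5.37% to 8.43%) of the 1106 nuclei passing the depth, mitochondrial and neuron gene limits, within 4743 nuclei passing the depth and mitochondrial limits and 5871 barcodes of the library. The whole series held 57597 barcodes, the rest from 5 sciatic nerve libraries, and asked in its ganglion library whether neurons with unmyelinated axons carry receptor parts for the semaphorin SEMA3B. The sample is titled as cells while its molecule is given as nuclear RNA, and no animal, side or ganglion can be told apart within the pool.

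Cold-sensing neurons are a small class of sensory neurons with thin axons that fire when the skin cools. TRPM8 supplies the depolarising current on cooling, while voltage-gated and background potassium channels set how much cooling a neuron needs before it fires. In mice, the transcription factor Foxp2 and the adhesion molecule Cdh8 are known from the Trpm8 class of ganglion neurons, and neither was used to choose these nuclei.

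Each Trpm8 nucleus was set beside the 5 other neuron nuclei nearest to it in depth, giving 375 depth-matched other neurons. Median depth was 9696 UMIs in the Trpm8 nuclei (2254 to 33781) and 9521 in the matched neurons (2241 to 34780), and the summed UMIs were 789673 and 3927238. Levels are given in UMIs per 1000000 UMIs of the set (CPM), and a ratio is the CPM of the Trpm8 nuclei over that of the matched neurons with an exact 95% interval. With 1 pooled library there is no replicate and no test: the intervals cover counting error only, and nuclei of 1 library are not replicates. Levels of different genes are not compared, since 3′ counts in nuclei are not scaled by length.

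Some features of the library bear on all results. The labels name 4 females, but Xist, the RNA that silences an X chromosome in females, had 3 UMIs in the whole ganglion library against 90086 in the P7 nerve library, and a Y-linked UMI was found in 66 of the 75 Trpm8 nuclei (88.0%). None of the 75 barcodes occurred in a nerve library. The median mitochondrial share was 0.110% in the Trpm8 nuclei and 0.0282% in the matched neurons, and 11 of the 75 were above 1%. The part of this difference in the gene results was not tested. Ratios were also taken among nuclei of at most 1%, but both medians lie below that limit, so it does not settle that part. The 8 satellite glia markers summed to 851 CPM in the Trpm8 nuclei, 1149 in the matched neurons and 8926 in 2338 glial nuclei, and the 8 Schwann cell markers to 182, 333 and 3616 CPM. Kcnj10, Prx and Mag were at 0 in the Trpm8 nuclei, and the markers of both lists together had 3 to 50 UMIs per Trpm8 nucleus (median 9) and 2 to 183 per matched nucleus (median 12). Mesenchymal, endothelial, mural, macrophage and cycling markers summed to 233, 12.7, 19.0, 17.7 and 6.33 CPM in the Trpm8 nuclei, each below the sum in the matched neurons and in the glial nuclei.

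Trpm8 itself ranged from 2 to 93 UMIs per nucleus with a median of 9. Exactly 2 UMIs were found in 12 nuclei, 3 to 9 in 26, 10 to 25 in 18 and 26 or more in 19. The chosen nuclei held 89.4% of the 1417 Trpm8 UMIs of all neuron nuclei, while 972 neuron nuclei had none and 49 had 1. Another 10 neuron nuclei had 2 or more Trpm8 UMIs but also a UMI of a barred gene, in 7 cases Il31ra. Among the glial nuclei, 32 of 2338 had a Trpm8 UMI (1.37%), at a median depth of 2077.5 UMIs against 9696 in the Trpm8 nuclei. Whether these UMIs came from free RNA was not tested, and the share is not matched in depth.

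In GENCODE M21 on GRCm38, Trpm8 lies on chromosome 1 from 88277661 to 88389293 on the plus strand. Hjurp, a chaperone of the centromeric histone in dividing cells, lies on the minus strand from 88262471 to 88277633, so that the outermost starts of both genes stand head to head with 27 bases between them. The stretch from there away from Hjurp is shown because Hjurp was among the genes with the highest ratios in the Trpm8 nuclei. It is chr1:88277634-88277829 on the minus strand of GRCm38.p6, from the RefSeq promoter table, 5′ to 3′, and the capitals mark the 27 bases between both starts.
Hjurp to Trpm8: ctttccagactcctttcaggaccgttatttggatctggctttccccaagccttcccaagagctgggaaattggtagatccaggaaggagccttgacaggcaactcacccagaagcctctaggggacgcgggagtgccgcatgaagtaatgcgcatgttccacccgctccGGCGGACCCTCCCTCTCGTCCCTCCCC

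Hjurp had a lowest, median and highest count of 0, 3 and 55 UMIs in the Trpm8 nuclei, against 0, 0 and 8 in the matched neurons. Its level was 490 CPM in the Trpm8 nuclei and 57.0 in the matched neurons, a ratio of 8.59 (7.27 to 10.2), or 13.0 for the 58 nuclei of the cluster described below. It was detected in 59 of 75 Trpm8 nuclei and 138 of 375 matched neurons, so it was not confined to either group. Glial nuclei had 83.2 CPM, more than the matched neurons. After thinning, a Hjurp UMI was found in 41.3% of the Trpm8 nuclei, 7.18% of the other neurons and 6.67% of glial nuclei. By number of Trpm8 UMIs, Hjurp had 116 CPM in nuclei with 2, 279 with 3 to 9, 745 with 10 to 25 and 770 with 26 or more. Within Trpm8, the antisense gene 4930453O03Rik (88347489 to 88352930, minus strand) had 28 UMIs in the Trpm8 nuclei and 1 in the matched neurons. The counts hold separate values for Trpm8 and this antisense gene, but whether the counting used strand is not given in the sources used here. Whether UMIs of 1 of these genes were counted for the other was not tested.

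Foxp2 and Cdh8 stood out in these nuclei, as did the grouping of most of them in 1 place. Foxp2 had a lowest, median and highest count of 0, 6 and 41 UMIs in the Trpm8 nuclei, against 0, 0 and 11 in the matched neurons. It reached 734 CPM in the Trpm8 nuclei and 30.6 in the matched neurons, a ratio of 24.0 (19.7 to 29.5). The ratio was 18.8 against all 1031 other neurons and 10.1 with every nucleus thinned to 1000 UMIs. A Foxp2 UMI was found in 81.3% of the Trpm8 nuclei and 13.3% of the matched neurons, and after thinning in 52.0% of the Trpm8 nuclei (40.2% to 63.7%) and 5.14% of the other neurons. Glial nuclei had a thinned share of 15.5% and 366 CPM, so Foxp2 was not particular to neurons in this ganglion. Cdh8 had 0, 8 and 40 UMIs as its lowest, median and highest count in the Trpm8 nuclei, against 0, 0 and 25 in the matched neurons, with 907 and 158 CPM and a ratio of 5.75 (5.16 to 6.42). Both genes occurred together in 60 of the 75 nuclei and both were missing in 10.

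When the 1106 neuron nuclei were clustered without the genes of the rule and without Foxp2 and Cdh8, 58 of the 75 Trpm8 nuclei (77.3%, 66.2% to 86.2%) fell in 1 cluster of 75 nuclei. The number was 58 at each of 3 cluster resolutions. Foxp2 was detected in 56 of the 58 nuclei inside this cluster and in 5 of the 17 outside, and Cdh8 in 57 of 58 and 7 of 17. The nuclei outside were deeper, with a median of 15088 UMIs against 7421.5 inside, and carried fewer Trpm8 UMIs, with a median of 3 (2 to 43) against 13 (2 to 93). Of the 12 nuclei with exactly 2 Trpm8 UMIs, 4 lay in the cluster, against 35 of the 37 nuclei with 10 or more. The label of cold-sensing neurons thus held by Foxp2 and Cdh8 for the nuclei inside the cluster, and for 17 nuclei chosen by the rule it mostly did not.

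Most of the 17 other nuclei carried Scn10a and most carried Piezo2, as did most matched neurons. Scn10a, the sodium channel Nav1.8 of nociceptors, had a lowest, median and highest count of 0, 8 and 38 UMIs outside the cluster, against 0, 0 and 1 inside. Piezo2, the channel of touch and proprioception, had 0, 11 and 43 UMIs outside and 0, 0 and 1 inside. A Scn10a UMI was found in 13 of the 17 and a Piezo2 UMI in 14. In the matched neurons the shares were 80.8% and 84.8%, so detection of these genes did not set the 17 apart from them. The 17 were mixed, as nuclei with 43, 23 and 6 Trpm8 UMIs among them had no Scn10a UMI. These had 13, 5 and 4 UMIs of Foxp2, 15, 7 and 5 of Cdh8 and at most 1 of Piezo2. The 17 nuclei held 35.4% of all UMIs of the Trpm8 nuclei but 93.6% of their Scn10a, 94.5% of their Piezo2, 94.2% of their Scn11a and 95.5% of their Kit UMIs. Since these genes helped to form the cluster, this is a description. Ratios for the 58 nuclei alone, an alternative chosen after the data were seen, are given beside many results below. They are taken against 290 other neurons matched anew in depth to the 58. Of the 123 named genes past 2-fold over all 75 nuclei, 49 moved by over 1.5 times in the 58, and 9 were no longer past 2-fold.

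**Figure D1:**
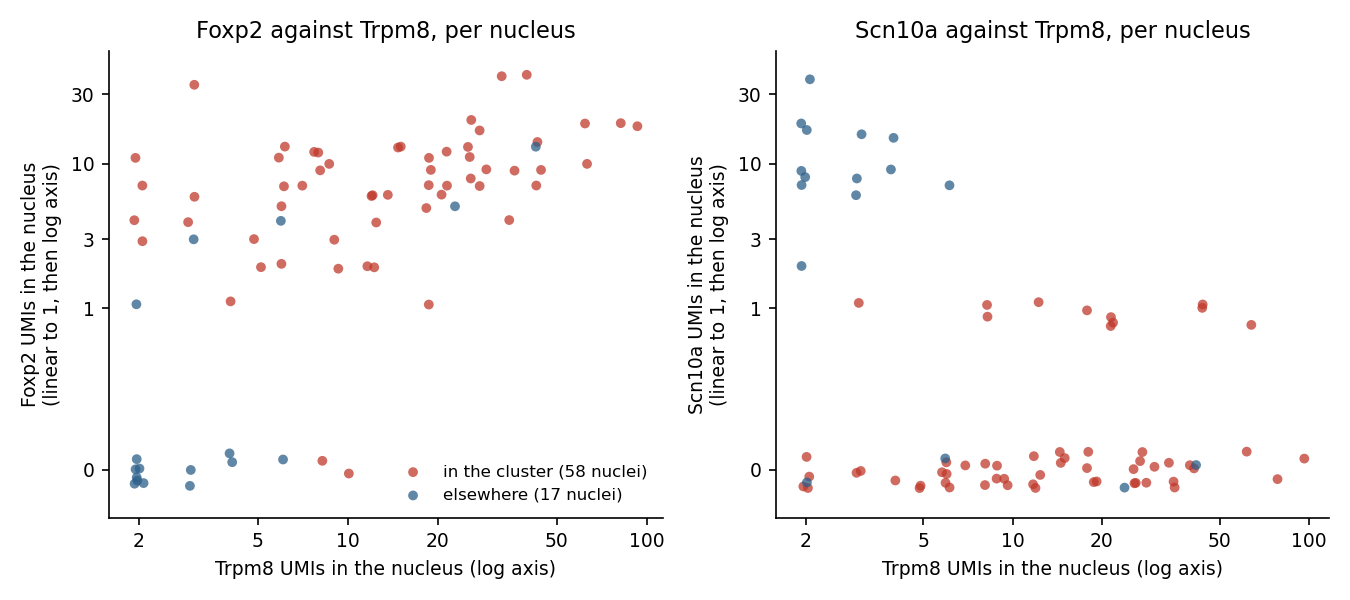
Foxp2 UMIs (left) and Scn10a UMIs (right) against Trpm8 UMIs in each of the 75 Trpm8 nuclei, with small random offsets to separate equal values; red points lie in the cluster and blue points elsewhere. Scn10a reached at most 1 UMI in the 58 nuclei of the cluster and 38 UMIs elsewhere, where Foxp2 was detected in 5 of 17 nuclei.

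The nuclei just inside and just outside the threshold are given here as a description. The 12 nuclei with 2 Trpm8 UMIs had 167 CPM of Foxp2, 135 of Cdh8 and 642 of Scn10a, and the 32 nuclei with 1 Trpm8 UMI that otherwise met the rule had 112, 155 and 674 CPM. With 3 to 9 Trpm8 UMIs, Foxp2 stood at 639 CPM and Cdh8 at 728, and with 26 or more at 1088 and 1341. Scn10a stood at 271 CPM with 3 to 9 Trpm8 UMIs and at 11.3 with 26 or more. Of the 12 nuclei with 2 Trpm8 UMIs 33.3% lay in the cluster, and of the 32 with 1 UMI 15.6%. In the same bins Piezo2 had 1178 CPM with 1 Trpm8 UMI, 770 with 2, 377 with 3 to 9, 30.1 with 10 to 25 and 15.1 with 26 or more.

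**Figure D2:**
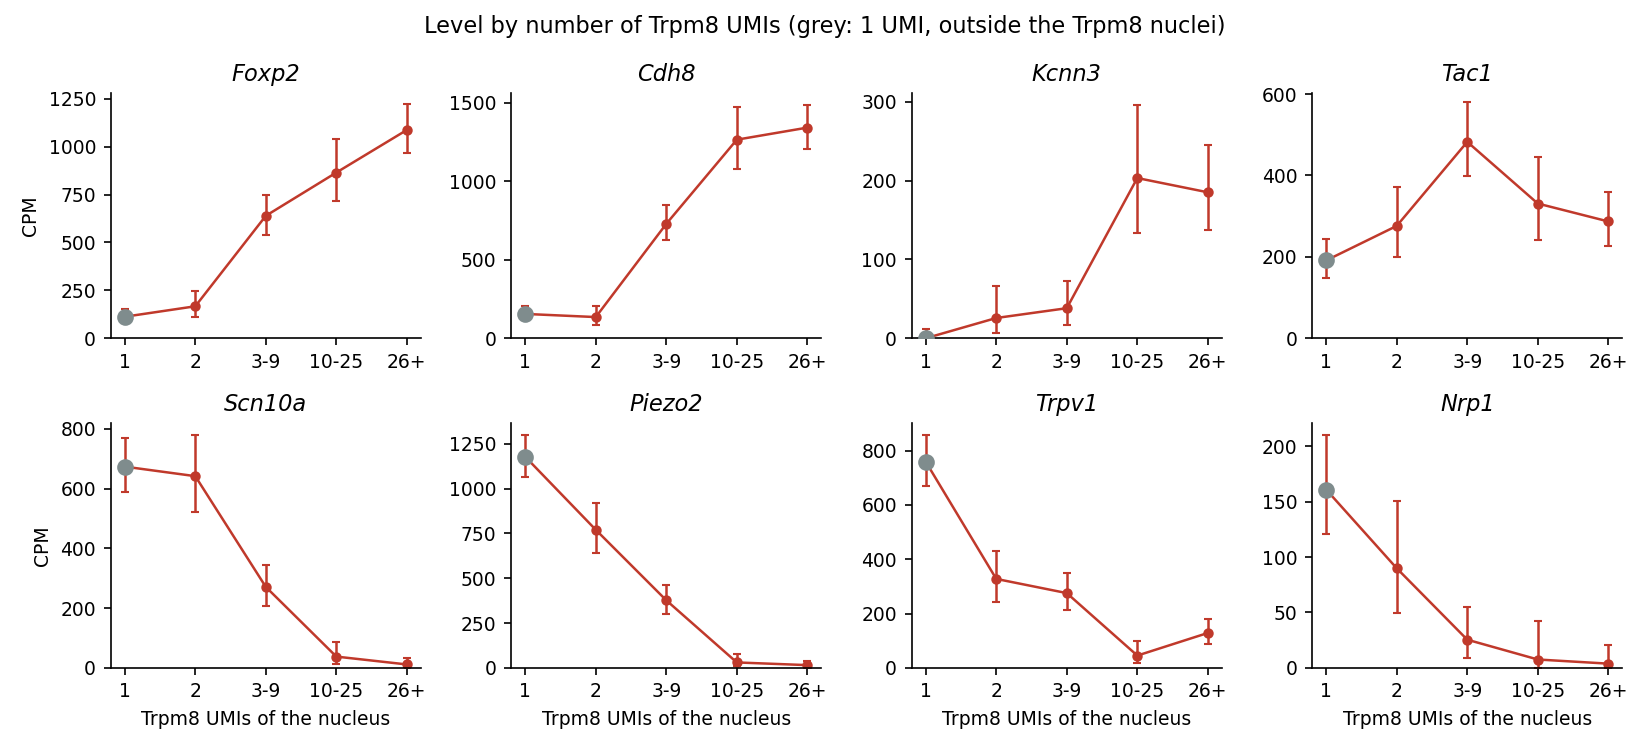
CPM of 8 genes by the number of Trpm8 UMIs of the nucleus, with exact Poisson 95% intervals; grey points are the 32 nuclei with 1 Trpm8 UMI, which are not Trpm8 nuclei. Foxp2 and Cdh8 are higher in bins of more Trpm8 UMIs, and Scn10a, Piezo2 and Nrp1 are lower.

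Across 8778 genes deep enough to compare, 432 were at least 2-fold higher and 870 at least 2-fold lower in the Trpm8 nuclei than in the matched neurons, 4.92% and 9.91%. The median log2 ratio over all these genes was -0.03. These shares are the background for the counts of gene groups below, where higher and lower mean at least 2-fold. Nuclei with a barred gene could enter only the matched group, where 88 of 375 had Il31ra and 57 had Mrgprd. Low ratios of genes such nuclei carry can thus follow in part from the rule. Among genes below, Ptprk, Htr1f, Cysltr2, Osmr, Grik1, Lpar3, P2rx3, Plxnc1, Gfra2 and Scn11a are markers of itch or Mrgprd neurons. No ratio was taken with such nuclei left out of the matched group.

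The genes with the highest lower bounds of the ratio were led by Trank1, which had 70.9 CPM in the Trpm8 nuclei and 1.78 in the matched neurons, a ratio of 39.8 (18.1 to 103), and of 64.7 for the 58 nuclei of the cluster. Trank1 was found in 30 of 75 Trpm8 nuclei and 7 of 375 matched neurons. Chst9, a sulfotransferase acting on N-acetylgalactosamine, had a ratio of 18.1 (12.5 to 26.6), Slc44a5, a choline transporter-like protein, 11.7 (8.10 to 17.1), and Col4a3, a chain of basement membrane collagen, 9.51 (6.59 to 13.9). Chst9 stood at 10.5 against all other neurons, and Slc44a5 at 21.6 among nuclei with a mitochondrial share of at most 1%. Syndig1, which associates with AMPA-type glutamate receptors, had a ratio of 9.84 (6.89 to 14.2) and of 26.6 for the 58 nuclei of the cluster. Tox, a nuclear HMG-box protein, had a ratio of 7.85 (6.77 to 9.12), with 584 CPM in the Trpm8 nuclei, 74.4 in the matched neurons and 585 in glial nuclei. Ndst4, an enzyme that modifies heparan sulfate, had a ratio of 7.73 (6.48 to 9.25) and Adamts16, a secreted protease, 6.86 (5.09 to 9.29). Slc34a2, a phosphate transporter, and Dnah14, a dynein heavy chain, were low in count, with 19 and 30 UMIs in the Trpm8 nuclei against 6 and 8 in the matched neurons. A single nucleus held 17 of the 30 Dnah14 UMIs.

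At the other end stood genes that many other neurons carried. Tmem233 was found in 6 of 75 Trpm8 nuclei and 210 of 375 matched neurons, with 10.1 and 601 CPM. Car10, a carbonic anhydrase-related protein, had 24.1 and 758 CPM, a ratio of 0.0317 (0.0191 to 0.0497). Tmem45b had 2 UMIs in all Trpm8 nuclei, against 583 in the matched neurons. Rubcnl had none against 294, with an upper limit of the ratio of 0.0628. Ptprk, a receptor phosphatase, had 3 UMIs in the Trpm8 nuclei and 1581 in the matched neurons.

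Among 30 genes of thermal, acid and mechanical transduction, 20 were deep enough to compare, of which 3 were higher and 9 lower (median log2 ratio -0.50). Piezo2 had a lowest, median and highest count of 0, 0 and 43 UMIs in the Trpm8 nuclei, against 0, 8 and 180 in the matched neurons. It stood at 275 CPM in the Trpm8 nuclei and 1582 in the matched neurons, a ratio of 0.174 (0.151 to 0.199), and at a ratio of 0.0155 for the 58 nuclei of the cluster. Trpc6 had a ratio of 0.0370 (0.00446 to 0.135), with 2 UMIs in the Trpm8 nuclei. Trpv1, the capsaicin and heat channel, had 198 CPM in the Trpm8 nuclei and 409 in the matched neurons, a ratio of 0.483 (0.407 to 0.570), which was 0.521 against all other neurons, 0.550 after thinning and 0.602 with at least 3 neuron genes required, and so not past 2-fold in any of these. A Trpv1 UMI was found in 36 of 75 Trpm8 nuclei, 24 of them in the cluster. After thinning the share was 18.7% of the Trpm8 nuclei (10.6% to 29.3%), 18.3% of the other neurons and 3.98% of glial nuclei.

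Trpc4, a channel opened through Gq-coupled receptors, had 114 CPM in the Trpm8 nuclei and 37.7 in the matched neurons, a ratio of 3.02 (2.30 to 3.96). Asic1, an acid-sensing channel, had a ratio of 6.63 (3.63 to 12.3) from 28 and 21 UMIs, and of 1.25 after thinning. Trpc7 had a ratio of 2.33 (1.64 to 3.27), but 49 of its 52 UMIs lay outside the cluster, and the ratio was 0.145 for the 58 nuclei and 0.884 with at least 3 Trpm8 UMIs required. Trpm3, a heat channel, differed less, with a ratio of 1.32 (1.25 to 1.40) over all Trpm8 nuclei and 0.834 for those of the cluster. Pirt, a membrane protein known in mice to modulate TRPM8 and TRPV1, had 184 CPM in the Trpm8 nuclei and 122 in the matched neurons, a ratio of 1.50 (1.24 to 1.81). Grik2, whose product has been reported to sense cold in mice, had a ratio of 1.60 (1.36 to 1.87), although glial nuclei had more of it, at 776 CPM against 268 in the Trpm8 nuclei. Trpm2, Trpm4, Tmem150c, Tmem63c and Asic3 had ratios of 0.383 to 0.460 from 7 to 36 UMIs in the Trpm8 nuclei. For the 58 nuclei Trpm2 stood at 0.168, Tmem150c at 0.221 and Asic3 at 0. With the whole cluster taken in place of the Trpm8 minimum, Trpm2 stood at 0.523, Trpm4 at 0.651 and Tmem63c at 0.520, and Tmem150c stood at 0.509 among nuclei with a Y-linked UMI. Trpv2, Trpm7, Trpc1, Tmem63b and Asic2 lay between 0.646 and 1.13. The 10 genes below the depth limit included Trpa1, Trpm5 and Piezo1, and no level is read for them.

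The voltage-gated sodium channels differed by member, with Scn10a and Scn11a lower and Scn3a higher. Of 16 sodium channel and subunit genes, 14 were compared, 3 higher and 3 lower (median log2 ratio 0.49). Scn10a had 218 CPM in the Trpm8 nuclei and 930 in the matched neurons, a ratio of 0.234 (0.200 to 0.273), and Scn11a, Nav1.9, had 130 and 393 CPM, a ratio of 0.332 (0.269 to 0.405). For the 58 nuclei of the cluster these ratios were 0.0253 and 0.0307. Scn9a, Nav1.7, was close between the groups, with 900 CPM in the Trpm8 nuclei and 786 in the matched neurons and a ratio of 1.15 (1.05 to 1.24). Scn3a had a ratio of 3.15 (2.29 to 4.29). Scn2a and Scn1a had ratios of 1.96 (1.62 to 2.35) and 1.71 (1.25 to 2.30), and Scn1a of 2.78 for the 58 nuclei. Fgf14, an intracellular partner of sodium channels, had a ratio of 2.81 (2.33 to 3.39) and was found in 22 of 75 Trpm8 nuclei. Of its 181 UMIs there, 127 lay outside the cluster, and 1 matched nucleus held 100 of the 320 UMIs of the matched neurons. Its relatives Fgf13 and Fgf12 stood at 1.83 and 0.686, and Fgf12 at 0.253 for the 58 nuclei. Nalcn, the sodium leak channel, had a ratio of 1.80 (1.57 to 2.07). Scn8a and Scn3b stood at 0.951 and 1.07.

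Potassium channels held genes far to both sides. Of 61 listed genes, 48 were compared, of which 15 were higher and 16 lower (median log2 ratio -0.18). Kcnk9, the background channel TASK-3 known from mouse cold neurons, had 47 UMIs in 28 Trpm8 nuclei against 7 UMIs in 6 of 375 matched neurons. That made 59.5 and 1.78 CPM and a ratio of 33.4 with an upper limit of 87.6, and of 58.4 when matched neurons with a Trpm8 UMI were left out. Kcnn3, the calcium-activated channel SK3, had a lowest, median and highest count of 0, 1 and 7 UMIs in the Trpm8 nuclei, against 0, 0 and 3 in the matched neurons. Kcnn3 stood at 113 and 4.84 CPM, a ratio of 23.3 (14.1 to 40.5). Kcnk2, the background channel TREK-1, had a ratio of 4.20 (3.62 to 4.87) and was found in 67 of 75 Trpm8 nuclei and 97 of 375 matched neurons. Kcnmb2, an accessory subunit of BK channels, had 840 and 246 CPM, a ratio of 3.41 (3.08 to 3.76).

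On the low side, Kcnip4, an accessory protein of Kv4 channels, had 669 CPM in the Trpm8 nuclei and 4179 in the matched neurons, a ratio of 0.160 (0.146 to 0.174), and of 0.281 after thinning. Kcnt1, a sodium-activated channel, had a ratio of 0.141 (0.109 to 0.179) and of 0.0341 for the 58 nuclei of the cluster. Kcnip2 had 1 UMI in the Trpm8 nuclei and 188 in the matched neurons. Kcnn1 had none against 114, with an upper limit of the ratio of 0.164. Kcnn2, another channel of the SK family, was higher, with 289 CPM in the Trpm8 nuclei and 119 in the matched neurons and a ratio of 2.42 (2.05 to 2.84). Of the SK channels compared, Kcnn3 and Kcnn2 were thus higher and Kcnn1 lower.

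Among the HCN pacemaker channels, which open on hyperpolarisation, Hcn3 was higher with a ratio of 2.54 (1.52 to 4.14) from 26 UMIs. Hcn2 had a ratio of 1.82 (1.21 to 2.68), and of 4.58 after thinning. Of 15 voltage-gated calcium channel genes compared, Cacnb2, an accessory subunit, was past 2-fold with a ratio of 3.71 (3.20 to 4.30), but the 17 nuclei outside the cluster held 73.6% of its UMIs and the ratio for the 58 inside was 1.14. The other 14 lay between 0.760 and 1.77.

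**Figure D3:**
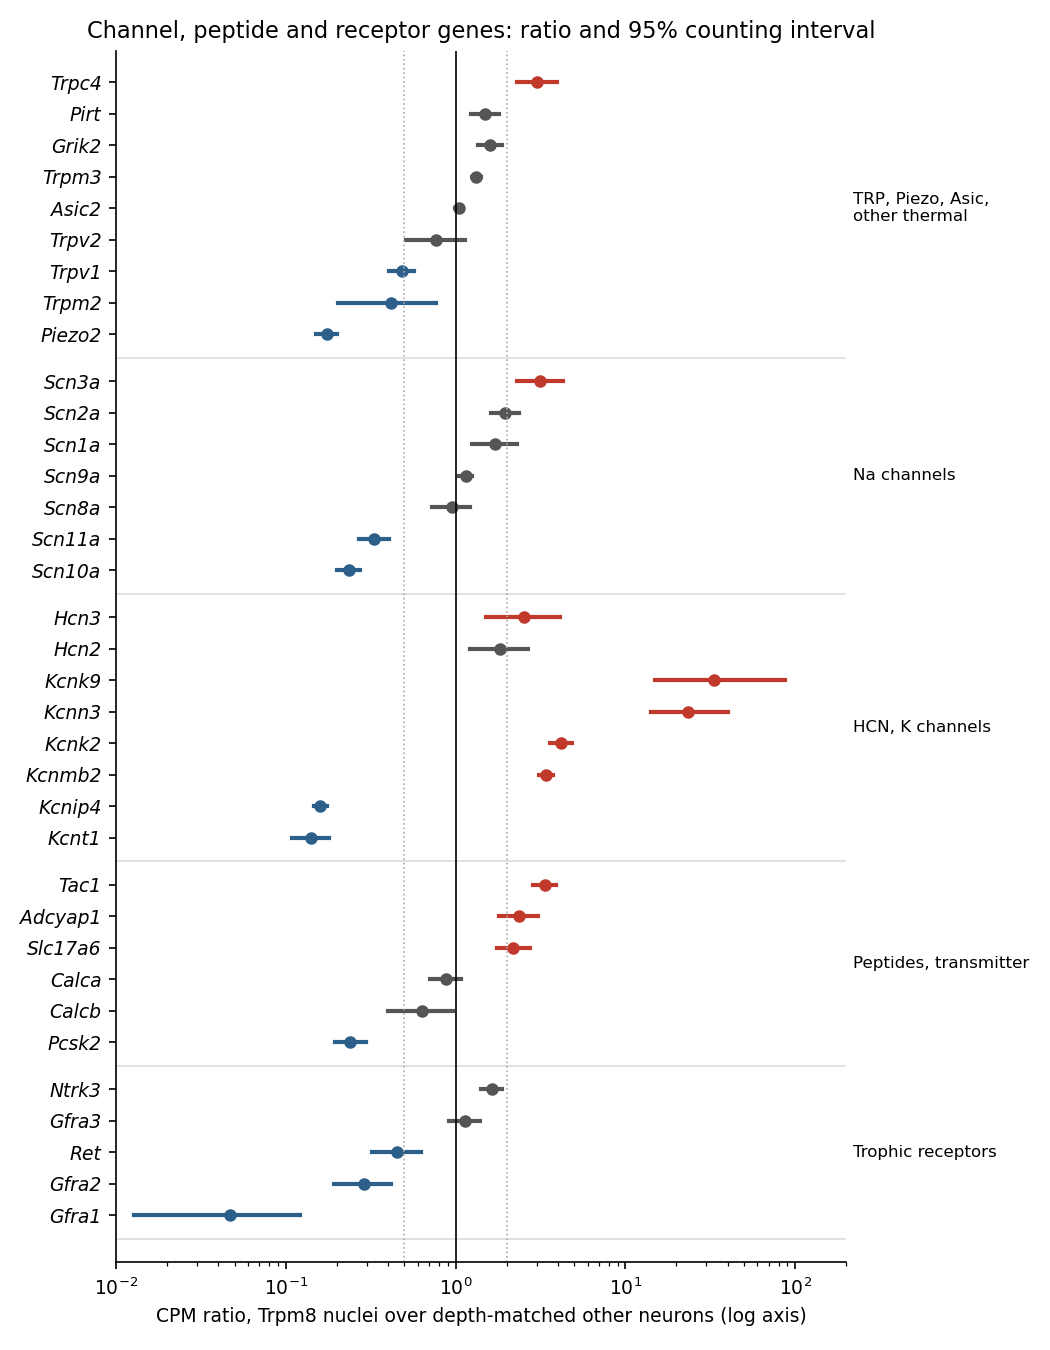
CPM ratio of the Trpm8 nuclei over the depth-matched other neurons for channel, peptide, transmitter and receptor genes on a log axis, with 95% counting intervals; red is at least 2-fold higher, blue at least 2-fold lower and dark grey between (dotted lines at 0.5 and 2). Kcnk9 and Kcnn3 lie far to the right of the other genes shown, and Piezo2, Scn10a, Scn11a, Kcnip4, Kcnt1 and Gfra1 to the left.

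Among neuropeptide and transmitter genes, 12 of 27 were compared, with 4 higher and 1 lower (median log2 ratio 0.65). Tac1, which encodes substance P, had a lowest, median and highest count of 0, 3 and 19 UMIs in the Trpm8 nuclei, against 0, 0 and 10 in the matched neurons. It stood at 351 and 105 CPM, a ratio of 3.35 (2.87 to 3.91), and was detected in 66 of 75 and 179 of 375 nuclei. Tac1 was 2.17 after thinning, where 32.0% of the Trpm8 nuclei, 14.5% of the other neurons and 11.8% of glial nuclei had a UMI. Slc17a6, the vesicular glutamate transporter VGLUT2, had a ratio of 2.19 (1.74 to 2.73). Gal, galanin, had a ratio of 2.78 (1.50 to 5.01) from 19 UMIs. Adcyap1, the peptide PACAP, had a ratio of 2.35 (1.81 to 3.05), but of 1.60 with at least 3 Trpm8 UMIs required, 1.05 for the 58 nuclei of the cluster and 1.04 after thinning. Calca, which encodes CGRP, had 143 CPM in the Trpm8 nuclei, 163 in the matched neurons and 229 in glial nuclei. After thinning a Calca UMI was found in 8.00% of the Trpm8 nuclei, 18.1% of the other neurons and 23.0% of glial nuclei, so these counts are not read as expression in the Trpm8 nuclei. The Calca ratio was 0.875 over all Trpm8 nuclei and 0.516 for the 58. Pcsk2, a prohormone convertase, was lower, with 122 and 506 CPM and a ratio of 0.240 (0.194 to 0.295). Nmb, Calcb, Chga, Slc17a8, Scg2 and Bdnf had ratios between 0.578 and 1.64, and 36 of the 40 Bdnf UMIs lay outside the cluster.

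Among trophic factor receptors, 19 of 24 were compared, with 2 higher and 5 lower (median log2 ratio -0.09). The GDNF family coreceptors differed by member. Gfra1 had 4 UMIs in the Trpm8 nuclei and 424 in the matched neurons, a ratio of 0.0469 (0.0127 to 0.121), and Gfra2 had 38.0 and 132 CPM, a ratio of 0.287 (0.192 to 0.415), or 0.444 for the 58 nuclei of the cluster. Ret, their shared signalling receptor, had a ratio of 0.452 (0.320 to 0.623), and after thinning Ret was 0.842 and Gfra2 0.649. Gfra3, the artemin coreceptor, was close between the groups, with 147 and 130 CPM and a ratio of 1.13 (0.918 to 1.39). Ntrk3, the neurotrophin-3 receptor, had a ratio of 1.64 (1.42 to 1.89). Among cytokine receptors, Osmr had 3 UMIs against 375 and Il6st a ratio of 0.402 (0.283 to 0.558), or 0.191 for the 58 nuclei, while Cntfr had a ratio of 2.15 (1.60 to 2.88), and of 1.15 after thinning. Erbb4 had a ratio of 2.66 (1.66 to 4.18), but 29 of its 31 UMIs lay outside the cluster and the ratio for the 58 nuclei was 0.188. Kit had a ratio of 1.35 over all Trpm8 nuclei and 0.0787 for the 58. The receptors Ntrk2, Ngfr, Lifr, Igf1r, Insr, Fgfr1, Fgfr2 and Bmpr1b lay between 0.540 and 1.92. For the 58 nuclei Ntrk2 stood at 0.491, Ngfr at 0.212 and Fgfr1 at 0.342. All 17 Bmpr1b UMIs lay in 2 nuclei outside the cluster.

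Of 58 G protein-coupled receptors, 24 were compared, with 4 higher and 8 lower (median log2 ratio -0.51). Gpr26, an orphan receptor, had a ratio of 13.1 (7.19 to 24.9) and was found in 29 of 75 Trpm8 nuclei and 14 of 375 matched neurons. Grm3, a metabotropic glutamate receptor, had 453 and 132 CPM, a ratio of 3.43 (2.99 to 3.93). Oprm1, the mu opioid receptor, had a lowest, median and highest count of 0, 3 and 22 UMIs in the Trpm8 nuclei, against 0, 0 and 25 in the matched neurons, and a ratio of 2.57 (2.27 to 2.90). Gpr149 had a ratio of 2.13 (1.68 to 2.68), but of 0.293 for the 58 nuclei of the cluster, 1.46 with at least 3 Trpm8 UMIs required and 1.90 without the highest doublet scores. The serotonin receptors Htr1f and Htr4 had 11 and 1 UMIs in the Trpm8 nuclei against 4561 and 724 in the matched neurons, and Cysltr2 and Lpar3, receptors of leukotrienes and lysophosphatidic acid, had 2 and 7 against 452 and 318. Htr1f, Cysltr2 and Lpar3 are markers of itch or Mrgprd neurons, and nuclei with a barred gene could enter only the matched group.

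Of 46 transmitter-gated channel genes, 23 were compared, with 9 higher and 3 lower (median log2 ratio 0.76). Subunits of GABA-A receptors were among those higher: Gabra3 had a ratio of 7.58 (4.24 to 13.8), Gabrg3 of 4.63 (4.09 to 5.24) and Gabrb1 of 3.95 (3.35 to 4.66). Gabra3 had 32 UMIs in 16 Trpm8 nuclei, and its ratio was 14.9 for the 58 nuclei of the cluster. Glra2, a glycine receptor subunit, had 24 UMIs in 11 Trpm8 nuclei against 12 UMIs in 4 matched neurons, and 22 of the 24 UMIs lay in the cluster. On the low side were the kainate receptor subunit Grik1, with 113 and 5105 CPM and a ratio of 0.0221 (0.0177 to 0.0272), and the ATP-gated channel P2rx3, whose 14 UMIs all lay outside the cluster. Grid1 had a ratio of 0.288 (0.147 to 0.515), with 565 CPM in glial nuclei, and of 0.0361 for the 58 nuclei.

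TRPM8 needs the membrane lipid PIP2 to open, and Gq and phospholipase C remove PIP2. Of 30 genes of this group, 23 were compared, with 2 higher and 8 lower (median log2 ratio -0.50). Plcd4, a phospholipase C of the delta type, had a lowest, median and highest count of 0, 1 and 24 UMIs in the Trpm8 nuclei, against 0, 0 and 6 in the matched neurons, and a ratio of 7.29 (5.64 to 9.46). Plcg2 had a ratio of 3.49 (2.17 to 5.57) from 33 UMIs. Gna14, a G protein alpha subunit of the Gq family, had 7 UMIs in 4 Trpm8 nuclei against 1929 UMIs in 196 matched neurons. Prkca, protein kinase C alpha, had 222 and 2192 CPM, a ratio of 0.101 (0.0865 to 0.117), Prkcq a ratio of 0.119 (0.0512 to 0.238) and Plcb3 of 0.230 (0.153 to 0.333), and for the 58 nuclei Prkcq stood at 0.0638 and Plcb3 at 0.0858. The low members thus covered a G protein, a phospholipase and kinases of the same route.

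Of 56 transcription factors of sensory neurons, 39 were compared, with 6 higher and 8 lower (median log2 ratio -0.18). Besides Foxp2, Rora had a ratio of 3.11 (2.79 to 3.45), though glial nuclei had more of it at 1712 CPM against 714 in the Trpm8 nuclei. Zfp521, a zinc finger protein, had a lowest, median and highest count of 0, 7 and 35 UMIs in the Trpm8 nuclei, against 0, 0 and 97 in the matched neurons, and a ratio of 2.39 (2.17 to 2.63). Bcl11a had a ratio of 2.54 (2.03 to 3.15) over all Trpm8 nuclei, but of 0.854 for the 58 nuclei of the cluster and 1.55 with at least 3 Trpm8 UMIs required. Casz1 had 8 UMIs against 1147, Etv1 6 against 483 and Etv5 2 against 143. Zfhx3 had a ratio of 0.227 (0.178 to 0.287).

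The semaphorin receptors, the subject of the study's ganglion library, were mostly low or near the level of other neurons. Neuropilins bind class 3 semaphorins and A-type plexins carry the signal into the axon. Of 11 receptor genes, 8 were compared, with 1 higher and 3 lower (median log2 ratio -0.27), and Plxna1, Plxnb1 and Plxnb3 were below the depth limit. Nrp1 had 22 UMIs in 8 Trpm8 nuclei, with a highest count of 8, against 587 UMIs in 108 matched neurons, with a highest count of 30. It stood at 27.9 and 149 CPM, a ratio of 0.186 (0.116 to 0.285), with 172 CPM in glial nuclei. The Nrp1 ratio was 0.316 (0.196 to 0.487) among nuclei with a mitochondrial share of at most 1% and 0.0882 with at least 3 Trpm8 UMIs required, and after thinning no Trpm8 nucleus had a UMI. Nrp2 had 20.3 and 30.3 CPM, a ratio of 0.669 (0.370 to 1.13). Inside the cluster, 2 UMIs of Nrp1 and 1 of Nrp2 were found in 58 nuclei, and the ratios were 0.0276 and 0.0508.

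Plxna4, an A-type plexin, had 237 UMIs in 48 of the 75 Trpm8 nuclei against 1174 in 210 of the 375 matched neurons. Its lowest, median and highest counts were 0, 1 and 22 UMIs in the Trpm8 nuclei and 0, 1 and 36 in the matched neurons. It stood at 300.1 and 299 CPM, a ratio of 1.00 (0.869 to 1.16), and for the 58 nuclei of the cluster at 188 CPM and a ratio of 0.629. Plxna2 had 63.3 and 177 CPM, a ratio of 0.358 (0.263 to 0.478), with 46 of its 50 UMIs outside the cluster and a ratio of 0.0431 for the 58. Plxna3 had a ratio of 2.18 (1.31 to 3.55) from 25 UMIs in 20 Trpm8 nuclei, was found in none after thinning, and was 1.95 among nuclei with at least 3 neuron genes. Plxnc1, the receptor of Sema7a, had 9 UMIs against 627, a ratio of 0.0714 (0.0325 to 0.136), or 0.0265 for the 58. Plxnd1 and Plxnb2 had ratios of 1.14 (0.802 to 1.59) and 1.13 (0.548 to 2.13), and Plxnb2 of 0.691 for the 58.

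**Figure D4:**
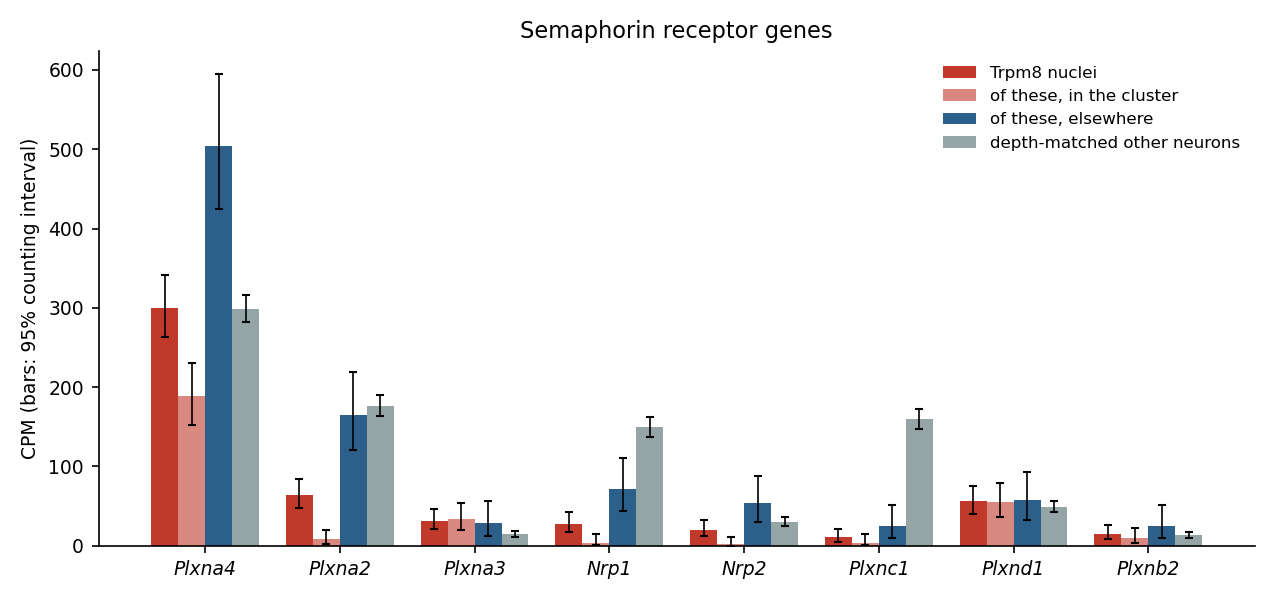
CPM of 8 semaphorin receptor genes with exact Poisson 95% intervals in the 75 Trpm8 nuclei (red), the 58 of them in the cluster (light red), the 17 elsewhere (blue) and the 375 depth-matched other neurons (grey). Plxna4 is close between the Trpm8 nuclei and the matched neurons, and Nrp1, Nrp2 and Plxna2 are near 0 inside the cluster.

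Set beside other classes chosen by their own markers, of which the Calca type takes nuclei with at least 2 Calca UMIs and none of Nefh, the levels of the receptors differed from class to class. Nrp1 stood at 27.9 CPM in the Trpm8 nuclei, 96.8 in 161 Calca-type, 8.39 in 85 itch-type, 6.51 in 24 Mrgprd-type and 472 in 146 C-fibre low-threshold mechanoreceptor-type nuclei. Plxna4 stood at 300.1, 418, 91.1, 29.3 and 548 CPM in the same order of classes, and Plxna2 at 63.3, 264, 161, 104 and 101. The classes hold only nuclei that met 1 rule. In all, 252 nuclei met the Calca rule, 123 the itch, 86 the Mrgprd and 246 the mechanoreceptor rule. Of the other neurons with no Trpm8 UMI, 135 met more than 1 rule and 407 met none. The Trpm8 nuclei thus had the lowest Plxna2 of the 5 classes. Their Nrp1 lay above the itch and Mrgprd types, but 20 of its 22 UMIs came from the 17 nuclei outside the cluster. The 58 inside had 3.92 CPM from 2 UMIs, which is too few to order them against the itch and Mrgprd types.

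Of the semaphorins themselves, 10 of 20 were compared, with 2 higher and 3 lower (median log2 ratio -0.51), and Sema3b was below the depth limit. Sema4g and Sema6c had ratios of 4.07 (2.06 to 7.95) and 3.15 (1.85 to 5.28) from 18 and 26 UMIs. Sema3e had 3 UMIs in 1 nucleus against 111 in the matched neurons, Sema3c a ratio of 0.300 (0.162 to 0.514) and Sema4b of 0.403 (0.221 to 0.683), which after thinning were 0.529 and 0.539. Sema4b stood at 0.502 for the 58 nuclei. Of 13 genes of semaphorin signal transduction compared, none was higher and 2 were lower, the MICAL enzymes Mical1 (0.139, 0.0659 to 0.258) and Mical2 (0.390, 0.164 to 0.798) (median log2 ratio -0.19).

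Adhesion genes were found on both sides. Of 38 immunoglobulin, contactin and teneurin genes compared, 7 were higher and 6 lower (median log2 ratio 0.54), and of 19 cadherins and protocadherins, 7 were higher and 5 lower (median log2 ratio -0.19). Pcdh9, a protocadherin, had a median of 51 and a highest count of 341 UMIs in the Trpm8 nuclei, against 1 and 242 in the matched neurons. Pcdh9 stood at 5666 and 1021 CPM, a ratio of 5.55 (5.32 to 5.79), with 2665 CPM in glial nuclei. Negr1, a GPI-anchored adhesion protein, had a median of 8 UMIs against 0, 1506 and 263 CPM and a ratio of 5.72 (5.26 to 6.22). Cntn4, a contactin, had a ratio of 5.06 (4.39 to 5.83), Tenm1, a teneurin, of 3.01 (2.78 to 3.25) and Kirrel3 of 2.47 (2.37 to 2.57), or 3.87 for the 58 nuclei. Pcdh19 had 45 UMIs in 19 Trpm8 nuclei and a ratio of 13.2 (7.39 to 24.5), which was 6.55 against all other neurons and 3.44 after thinning. Pcdh15 had a ratio of 4.04 (3.53 to 4.63).

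The cadherins split by member, with Cdh8 higher, at a ratio of 9.82 for the 58 nuclei, and Cdh9 at 1 UMI against 745. Cdh12 and Cdh6 had ratios of 0.200 (0.102 to 0.354) and 0.213 (0.0677 to 0.510), and after thinning Cdh12 stood at 0.655. Cdh6 stood at 0.0622 for the 58 nuclei. Cdh10 had a ratio of 0.485 (0.363 to 0.638), which was within 2-fold in 6 alternatives, at 0.502 to 0.719. Cadm1 had 824 and 2225 CPM, a ratio of 0.370 (0.342 to 0.401), and Sdk2, Cntn6 and Ntng1 had ratios of 0.0942 to 0.232 from 4 to 9 UMIs. Among 15 other guidance genes compared, 1 was higher and 4 lower (median log2 ratio 0.12). Ephb1 had 17 UMIs against 21, a ratio of 4.03 (1.99 to 8.01), or 1.72 after thinning. The ephrin receptor Epha6 had 3 UMIs against 509, although with the whole cluster in place of the Trpm8 minimum its ratio was 0.654, and the ephrin Efna5, the slit receptor Robo1 and the netrin receptor Unc5c had ratios of 0.240 (0.179 to 0.315), 0.257 (0.168 to 0.378) and 0.334 (0.239 to 0.455).

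Marker lists of other ganglion classes separated from the Trpm8 nuclei to different degrees. All 8 markers of Mrgprd nociceptors and all 4 compared of itch neurons were lower, with summed levels of 328 and 27.9 CPM in the Trpm8 nuclei against 6082 and 1799 in the matched neurons. Neither list contains a barred gene, but nuclei with a barred gene could enter only the matched group. Of 7 compared markers of C-fibre low-threshold mechanoreceptors, 4 were lower and 1, Zfp521, higher, and Tafa4 had 6 UMIs against 1022. Of 7 compared peptidergic markers, 3 were higher (Tac1, Adcyap1, Gal) and 1 lower (Trpv1), and the list summed to 885 and 809 CPM. Of 7 compared markers of large-diameter neurons, 1 was lower and 1 higher, Kcnc1, with a ratio of 2.31 (1.39 to 3.74), or 1.84 among nuclei with a mitochondrial share of at most 1%. All 4 neurofilament and peripherin genes compared lay within 2-fold, between 0.718 and 0.961.

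By class, Foxp2 stood at 734 CPM in the Trpm8 nuclei and at 14.4 to 18.2 CPM in the Calca, itch, Mrgprd and C-fibre low-threshold mechanoreceptor types. Cdh8 stood at 907 CPM in the Trpm8 nuclei, 57.8 in Calca-type, 177 in itch-type, 267 in Mrgprd-type and 146 in mechanoreceptor-type nuclei. Of these classes, the Calca-type nuclei were nearest to the Trpm8 nuclei in Adcyap1 (113 and 120 CPM) and Kcnmb2 (840 and 531). The Trpm8 and Calca-type nuclei differed in Trpv1 (198 and 580) and Scn10a (218 and 958). Trpm8 nuclei outside the cluster held 64.0% of the Adcyap1, 49.4% of the Trpv1 and 93.6% of the Scn10a UMIs of the Trpm8 nuclei. They held 37.0% of the Kcnmb2 UMIs and 35.4% of all UMIs. The closeness in Adcyap1 is thus not read for the nuclei inside the cluster. Zfp521 was shared with the mechanoreceptor type, at 784 CPM in the Trpm8 nuclei and 1220 there, against 9.77 to 83.9 in the other types. Since glial nuclei also carried Calca, at 229 CPM and in 23.0% of nuclei after thinning against 40.4% of the Calca type, that type is called by its rule and not by a cell type. The classes were chosen by their own markers among nuclei with no Trpm8 UMI, and a type of large-diameter neurons with 14 nuclei of a median of 1845 UMIs was too shallow to use.

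**Figure D5:**
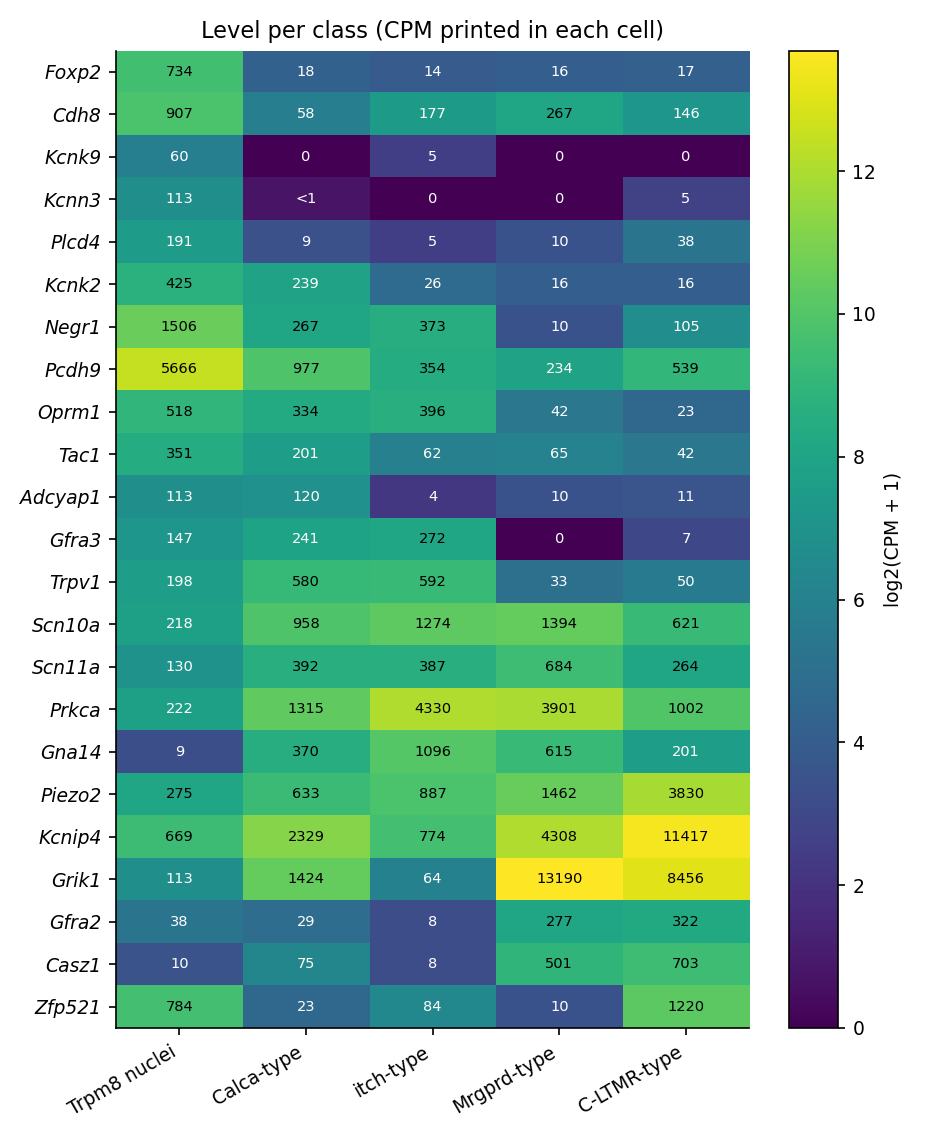
CPM of 23 genes in the 75 Trpm8 nuclei and 4 classes of other neurons chosen by marker UMIs; color is log2(CPM + 1) and the CPM is printed in each cell. Foxp2, Kcnk9, Kcnn3 and Plcd4 are high in the first column alone among these classes, and Gna14 and Scn10a are lowest there.

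Of 13 injury and immediate early genes, 5 were compared. Gap43, a growth cone protein, had 246 and 113 CPM, a ratio of 2.18 (1.83 to 2.58), and of 1.22 for the 58 nuclei of the cluster, 1.59 with at least 3 Trpm8 UMIs required and 1.97 against all other neurons. Junb and Egr1 had 7 and 5 UMIs in the Trpm8 nuclei against 148 and 82 in the matched neurons.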

How the data were processed

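The deposited file holds UMI counts per gene and barcode of 1 ganglion library, limited to called barcodes. Per the file headers, Cell Ranger 7.1.0 made these counts, and 7.0.0 those of the P7 nerve library, used only for Xist and Y-linked genes. Seurat and the genome build mm9 stand in the submitters' processing notes, and whether intronic reads or strand were counted is not given in the sources used here. Gene positions are from GENCODE M21 on GRCm38, since the files give none.

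Nuclei, members and gene lists were chosen with earlier results of these data known. Depth per Trpm8 nucleus was 2254 to 33781 UMIs. For each, deepest first, the 5 unused other neuron nuclei nearest in log total UMIs were taken. UMIs were summed per set and divided by the set's total. A gene was compared when the mean of both CPM values gave at least 10 UMIs at the Trpm8 nuclei's total, and rule genes and mitochondrial genes were left out. Ratios have exact conditional intervals, shares Clopper-Pearson and levels Poisson intervals, at 95%. For the CPM that a count of 0 allows, a limit of 3 UMIs was used. Genes near-identical to or overlapping another are uncertain. Thinning drew 1000 UMIs from each nucleus without loss of any.

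Clustering used scanpy 1.11.5 (2000 variable genes, 30 components, 15 neighbours, Leiden at resolution 1). Scrublet's own threshold called 2 of 4743 nuclei, which is too few to trust, so doublets were kept and the highest-scoring nuclei left out as an alternative. Glial nuclei had none of the 4 neuron genes and at least 2 of 6 glial genes, among them Fabp7, Apoe, Sox10 and Erbb3. Class rules among nuclei with no Trpm8 UMI were at least 2 UMIs of Mrgprd, of Il31ra plus Nppb, of Th, Slc17a8 and Tafa4 together, of Calca without Nefh, or of Nefh without Calca, and a nucleus meeting more than 1 rule was left out.

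Genes named are the rule genes with Foxp2 and Cdh8, the 20 with the highest lower bound and the 10 with the lowest upper bound of the ratio (predicted genes left out), and up to 4 per direction and list past 2-fold, with compared members of the semaphorin receptor, transduction, HCN, peptide, trophic receptor and sodium channel lists. Some genes that this rule names are not reported here. The antisense gene and the gene groupings by cluster were added after the values were seen. The comparison code was tested on simulated counts.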

Additional observations from a re-analysis of the deposited data

How the results depend on the processing

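No paired analysis was possible because the comparison lies within 1 library. The 75 nuclei became 59 to 107 under other limits, and 58 lay in 1 cluster at each resolution tried. The numbers of genes at least 2-fold higher (432) and genes at least 2-fold lower (870) became 118 and 148 of 1141 after thinning to 1000 UMIs and 3025 and 9914 of 26022 with no depth limit, and in the other alternatives lay within 1.5 times. Median-of-ratios scaling gave 477 and 791. The Foxp2 ratio of 24.0 became 18.8 against all other neurons, 10.1 after thinning and 31.4 with at least 3 neuron genes, and its thinned share of 52.0% was 81.3% unthinned. Of 123 named genes past 2-fold, 107 stayed so after thinning, 116 with at least 3 Trpm8 UMIs, 110 with the whole cluster in place of the Trpm8 minimum and 114 with the 58 nuclei alone. In these alternatives 64, 25, 49 and 49 of them moved by over 1.5 times, and 13 did with a mitochondrial share of at most 1% and 12 with at least 3 neuron genes. Erbb4 was within 2-fold at 1.11 with at least 3 Trpm8 UMIs and 1.90 with at least 3 neuron genes. Slc17a8 stood at 2.39 and Trpm2 at 0.134 with a mitochondrial share of at most 1%. For the 58 nuclei, Grik1, Gna14, Casz1, Htr4, P2rx3, Mical2, Ntng1 and Junb moved further below 1, and Cdh9, Tmem45b, Trpc6, Etv1, Cysltr2, Lpar3, Sema3e and Epha6 nearer to 1, all staying at least 2-fold lower. Among the 123 named genes past 2-fold, ratios that changed side of 1 were those of Trpc7 (0.884 with at least 3 Trpm8 UMIs, 0.186 for the whole cluster, 0.145 for the 58 nuclei), Bcl11a (0.968 whole cluster, 0.854 for the 58), Erbb4 (0.305 thinned, 0.121 whole cluster, 0.188 for the 58), Gpr149 (0.509 thinned, 0.404 whole cluster, 0.293 for the 58) and Plxna3 (0 thinned). Some genes within 2-fold changed side too, among them Kit, Bdnf and Trpm3 for the 58 nuclei. With the 58 nuclei alone the 17 others were left out, and the matched neurons were also drawn anew, 290 in place of 375. The cause of these changes was not tested. Leaving out nuclei with 3 or more glial marker UMIs left no Trpm8 nucleus, and none had an Xist UMI without a Y-linked one, so neither alternative gave a value. A count of 0 in the Trpm8 nuclei allows 3.80 CPM, which limits what can be said of genes listed at few UMIs.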

Other observations

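The cluster that held 58 of the Trpm8 nuclei had 17 further nuclei, of which 6 had no Trpm8 UMI, 6 had 1 and 5 had 2 or more, and 7 carried a barred gene. They had 665 CPM of Foxp2 and 1457 of Cdh8, close to the Trpm8 nuclei by these genes, and 73.9 CPM of Scn10a. Their Trpv1 level was 876 CPM (698 to 1086), against 155 CPM (123 to 193) in the 58 Trpm8 nuclei of the cluster.

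Foxp2 was also found in other clusters of neuron nuclei. It was detected in 69.0% of a cluster of 29 nuclei at a median depth of 6699 UMIs, in 45.8% of a cluster of 59 at 2987 UMIs and in 26.4% of a cluster of 121 at 3142 UMIs. A Trpm8 UMI was found in 3.45%, 3.39% and 4.13% of these nuclei.

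Among the 75 Trpm8 nuclei, Rbfox3, one of the neuron genes of the rule, had 160 CPM against 448 in the matched neurons, with a UMI in 45.3% and 82.4%. It stood at 366 CPM in nuclei with 2 Trpm8 UMIs and at 71.8 in those with 26 or more.

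Trpv1 and Tac1 occurred together in 34 of the 36 Trpm8 nuclei with a Trpv1 UMI, and Tac1 in 32 of the 39 without one.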
